A study of Mus musculus with 2 samples.

Results

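The serpins of mouse liver were followed from fasting to feeding. Serpin probes were chosen by name, as every probe that is not a control and whose transcript belongs to a gene with a symbol of the form Serpin, a clade letter from a to i and a number. The rule took 75 of the 39402 probes on the array and used no measured value. These probes stand for 60 of the 69 serpin genes in the RefSeq table of the assembly GRCm38.p6, and 46 of the 60 genes were measured, meaning that the signal was well above background on at least 1 array. Across the series, 16346 of 20652 genes with a probe were measured.

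The study asked which liver genes respond to food ingestion. It used total RNA from whole liver of male C57BL/6J mice, with no gene altered and no drug given in either group, labelled with Cy3 and hybridized to 1 Agilent whole mouse genome array per group. Each array held a pool of 3 mice, and the methods give an age of 8 to 12 weeks for the study's mice. The fasting group had been without food for 16 h by one label and for 14 to 16 h by another, and the feeding group is described both as fed ad libitum and as fed after the fast. With 1 array per group there was no replicate and therefore no test. The only error available was the spread of probes printed in 10 spots, whose log2 difference between the arrays had an SD, for 1 spot, of 0.18 among dim probes, 0.094 among probes of middle brightness and 0.080 among bright probes. This spread covers the measurement on the array and not the variation between mice. The number of arrays limits the precision of every value below.

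Serpins are a family of proteins that share a fold with an exposed reactive center loop. In the inhibitory members a protease cuts this loop as if it were a substrate, stays bound to it and is distorted, so that inhibitor and protease are both used up. The family is divided into clades named by letters. Hepatocytes secrete many members of clade A and of clades C to G into plasma, where they restrain clotting, fibrinolysis, complement and neutrophil proteases or carry hormones, whereas clade B members lack a classical signal peptide and mostly act inside cells.

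A feeding minus fasting difference of at least 2-fold after quantile normalization was observed in 4 of the 46 measured serpins, or 8.70%, where the same holds for 7.91% of all measured genes. The share of serpins past 2-fold was therefore close to the background. Of the 4 genes, Serpina4-ps1 and Serpina9 were higher upon feeding (3.29% of all genes) and Serpinb8 and Serpina3f were lower upon feeding (4.62% of all genes). The median log2 change over the 46 serpins was 0.00, with 20 genes below 0 and 22 above. Genes detected on 1 array only whose direction could not be given enter as 0. Over all measured genes the median was also 0.00, but quantile normalization holds that value close to 0. Probes for 39 serpins were well above background on both arrays and for 7 on 1 array only. The remaining 14 genes were not well above background on either array, 13 of them in clade B and the other one Serpini2. No probe was matched to Serpina1b, Serpina3g, Serpina16, Serpinb9h, Serpine3 and the pseudogenes Serpina3d-ps, Serpina3e-ps, Serpina3l-ps and Serpinb1-ps1, which were not analysed here.

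**Figure D1:**
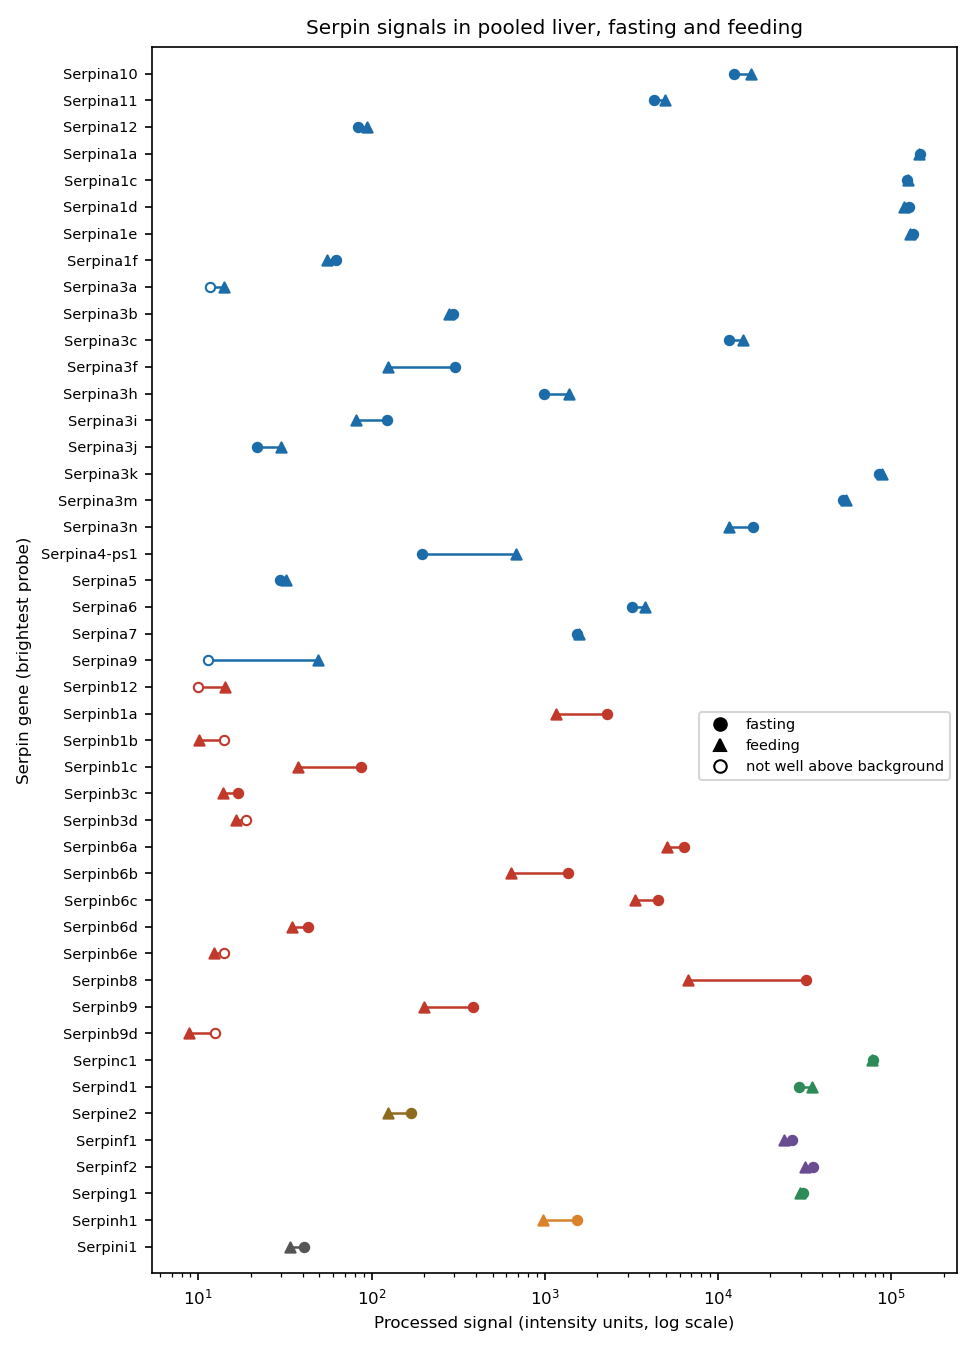
Processed signal (intensity units, log axis) of the brightest probe of the measured serpins upon fasting (circles) and feeding (triangles), with open symbols where the probe was not well above background and colors by clade (C, D and G in one color). Serpinb8 stands out with 31957 upon fasting and 6697 upon feeding, while most lines are short. Signals of different probes depend on the probe and give no order of RNA levels between genes.

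Clades A and B lay on different sides of 0. Among the serpins well above background on both arrays, 17 of 21 in clade A had a value above 0, and all 9 in clade B had a value below 0, where 50.1% of all genes measured on both arrays were below 0. The median log2 change of these genes was 0.16 in clade A and -0.75 in clade B. With the genes measured on 1 array only, which enter as a lower bound or with no direction, the medians were 0.16 over 23 genes and -0.21 over 14 genes. Under the normexp correction the clade A median over 23 genes was 0.08, with 7 genes below 0 in place of 4, and scaled to the median the clade B median over 14 genes was -0.07. All 9 clade B genes stayed below 0 under each of the 10 ways of processing the arrays. Several of these ways return the same value for most of the 9 genes, and mainly the scalings and the normexp correction could move them. The difference between clades was not tested, since members of a cluster are neither independent nor replicates of a condition.

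**Figure D2:**
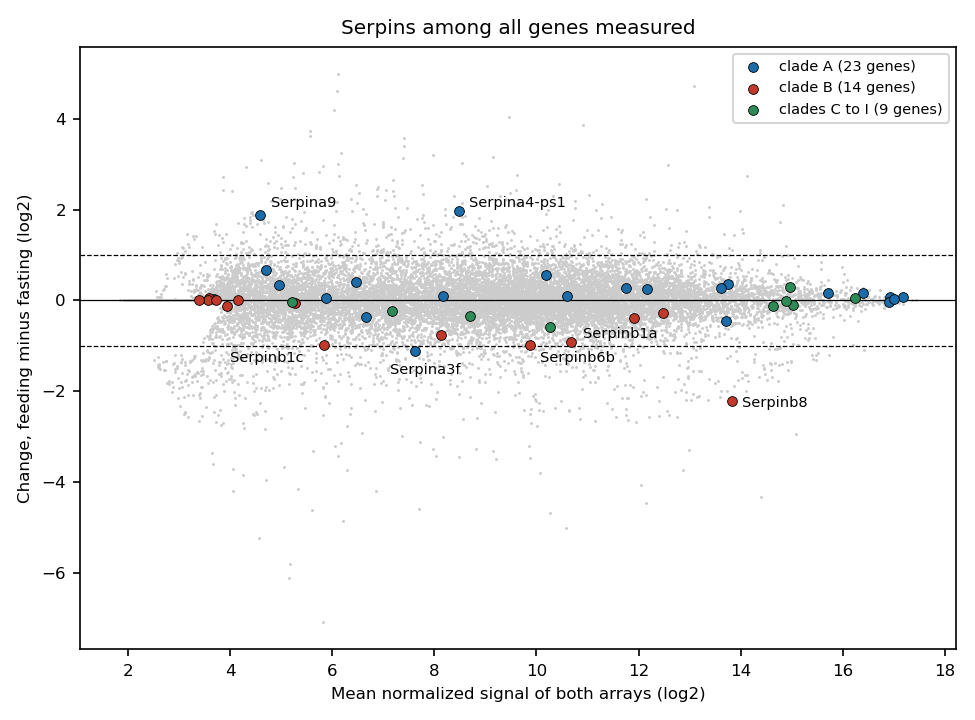
Log2 change from fasting to feeding against the mean normalized log2 signal of both arrays for 16346 genes (gray) and 46 serpins (colored by clade), with dashed lines at 2-fold. The brightest clade A serpins lie close to 0, and the clade B serpins with a direction on both arrays lie below it, Serpinb8 farthest.

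The alpha-1-antitrypsin paralogs, the main plasma inhibitors of neutrophil elastase, differed little between the states. Serpina1a had a signal of 147126 upon fasting and 143823 upon feeding. Serpina1c was at 123848 and 124943. Serpina1d was at 127163 and 118593, and Serpina1e at 132902 and 128095. After normalization the 4 genes differed between the states by 0.07, 0.08, -0.04 and 0.03 on the log2 scale in that order, which is no more than the spot SD of bright probes. The second probes of Serpina1a, Serpina1d and Serpina1e gave 0.04, 0.10 and -0.17. Serpina1f, a divergent copy known from the epididymis, was dim, at 62.5 upon fasting and 55.4 upon feeding (log2 change 0.05). These copies arose by duplication and are nearly identical, so that a probe for one may also capture RNA of another, including Serpina1b. Probe sequences were not available here, and the extent of such sharing was not tested. The 4 values may therefore not be independent of each other.

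To show how alike the copies are also outside the coding part, the 100 bases before the RefSeq start of each are given (GRCm38.p6, 5′ to 3′), with the longest run that the 4 share, 38 bases, in capitals.
Serpina1a, chr12:103863620-103863719, minus strand: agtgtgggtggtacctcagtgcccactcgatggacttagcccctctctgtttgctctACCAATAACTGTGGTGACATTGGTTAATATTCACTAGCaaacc
Serpina1c, chr12:103904951-103905050, minus strand: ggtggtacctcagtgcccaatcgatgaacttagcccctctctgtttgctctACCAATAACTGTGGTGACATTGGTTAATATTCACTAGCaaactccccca
Serpina1d, chr12:103773634-103773733, minus strand: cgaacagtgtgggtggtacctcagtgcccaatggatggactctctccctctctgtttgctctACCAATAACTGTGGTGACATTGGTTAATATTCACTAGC
Serpina1e, chr12:103956898-103956997, minus strand: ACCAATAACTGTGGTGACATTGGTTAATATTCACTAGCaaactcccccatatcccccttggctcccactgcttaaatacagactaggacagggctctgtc
The shared run ends 5, 11, 0 and 62 bases before the annotated start, in the same order. All 4 genes lie on the minus strand of chromosome 12.

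The antichymotrypsin-like Serpina3 group, which is a single gene in humans and a cluster of copies on chromosome 12 in mice, did not move as 1 block. Of its 10 measured members 7 were above and 3 below 0, with log2 changes from -1.10 to 0.66. Serpina3f fell from 303 to 124, which after normalization was 2.15-fold (log2 change -1.10). Its second probe went from 298 to 106, a log2 change of -1.31, so both probes passed 2-fold. Under the normexp background correction the change of Serpina3f was -0.81 and did not reach 2-fold. Serpina3n, an acute phase serpin that inhibits granzyme B and cathepsin G, was at 15912 upon fasting and 11528 upon feeding, a log2 change of -0.45 or 5.64 times the spot SD, and of -0.23 after scaling to the median. Serpina3i was at 123 and 81.7 (log2 change -0.37).

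The other members of the group were at 0 or above it. Serpina3k, an inhibitor of tissue kallikrein, was at 84737 upon fasting and 88232 upon feeding, and Serpina3m at 52250 and 54960, each with a log2 change of 0.16. Serpina3c was at 11498 and 13842 (log2 change 0.27). Serpina3h was at 993 and 1381 (log2 change 0.56), and Serpina3j, a dim probe, at 21.8 and 30.1 (log2 change 0.66, and 0.15 under the normexp correction). Serpina3b differed by 0.09, and Serpina3a was detected upon feeding only, with a lower bound of 0.04. As in the Serpina1 group, these copies are similar in sequence, and how far their probes share RNA was not tested.

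The promoter window of Serpina3f is shown because it was the clade A member that fell past 2-fold. It covers the 250 bases before the first of 2 RefSeq starts, with capitals for matches to a C/EBP motif (TTGCNNAA, on either strand, 2 matches) and to a STAT motif (TTCNNNGAA, 1 match). C/EBP factors and STAT3 are known regulators of acute phase genes.
Serpina3f, chr12:104214294-104214543, plus strand: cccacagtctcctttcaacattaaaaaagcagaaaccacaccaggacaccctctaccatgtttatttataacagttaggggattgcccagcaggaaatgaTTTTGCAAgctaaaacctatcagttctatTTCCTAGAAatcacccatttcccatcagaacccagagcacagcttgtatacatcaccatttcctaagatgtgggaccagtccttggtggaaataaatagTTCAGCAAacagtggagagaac
The C/EBP letters were found in 9.56% and the STAT letters in 7.02% of all 32851 promoter windows of this length, searched on both strands with each motif counted on its own. Among windows of measured serpins the shares were 52.6% and 31.6% in clade A (19 windows of 16 genes) and 11.8% and 5.88% in clade B (17 windows of 13 genes). Windows of duplicated genes resemble each other, so these are descriptions of the family and not independent counts. A FoxO motif, GTAAACA, was found in none of the 63 serpin windows and in 3.17% of all windows. TATAAA on the gene's strand was found in 20.6% of serpin windows and in 7.59% of all. A match of letters does not show that a factor binds, and no match concerns this window only.

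The hormone-binding serpins and the clotting-related members of clade A had values slightly above 0. Serpina6, the corticosteroid-binding globulin, was at 3203 upon fasting and 3778 upon feeding, a log2 change of 0.26, with 0.29 at its second probe. Serpina7, the thyroxine-binding globulin, was at 1534 and 1578, a log2 change of 0.09. Serpina10, the protein Z-dependent inhibitor of factor Xa, was at 12426 and 15558, a log2 change of 0.35, with 0.18 at its second probe. Serpina11, of unclear function, was at 4254 and 4946 (log2 change 0.26). Serpina5, the protein C inhibitor, was dim at 29.4 and 32.3 (log2 change 0.35), as was Serpina12, the adipokine vaspin, at 83.0 and 94.2 (log2 change 0.40). Under the normexp correction these dim genes were at 0.04 and 0.18. None of these genes reached 2-fold.

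Both serpins that rose upon feeding also belong to clade A. Serpina4-ps1, annotated as a pseudogene of the kallikrein inhibitor kallistatin, went from 195 to 677, a log2 change of 1.96 or 3.89-fold. Only 0.51% of measured genes had a higher change, and the change was 1.55 under the normexp correction. It rests on a single probe. Serpina9, known from germinal center B cells, was not well above background upon fasting (11.4) and was at 49.1 upon feeding, which gives at least 3.67-fold (log2 1.88) against the lowest signal called well above background on the fasting array. That array had a wider spread of local background, with an SD of 31.1 against 1.83, and under the normexp correction the change of Serpina9 was 0.43. Neither gene has a promoter sequence in the table used here.

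In clade B, Serpinb8 stood apart. This cytosolic serpin, which inhibits the proprotein convertase furin, had a signal of 31957 upon fasting and 6697 upon feeding. After normalization it fell by 2.21 on the log2 scale, or 4.62-fold, and only 0.685% of measured genes had a lower value. The change lay between -2.27 and -2.02 under the 10 ways of processing, and the difference was 27.6 times the spot SD. It rests on a single probe. Measured genes were also split by brightness into 3 equal parts, and in the brightest part 5.8% of all genes passed 2-fold. Of the 21 serpins there, Serpinb8 passed it and the others lay between -0.91 and 0.35. Furin itself was at 33541 and 25739, a log2 change of -0.34.

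The 250 bases before the RefSeq start of Serpinb8 are shown as the window of the serpin with the greatest decrease (GRCm38.p6, 5′ to 3′).
Serpinb8, chr1:107589756-107590005, plus strand: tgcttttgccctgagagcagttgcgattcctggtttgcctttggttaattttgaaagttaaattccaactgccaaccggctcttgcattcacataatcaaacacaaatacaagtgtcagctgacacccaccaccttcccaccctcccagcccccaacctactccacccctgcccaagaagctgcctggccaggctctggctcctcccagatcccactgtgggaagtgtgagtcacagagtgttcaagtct
None of the 6 motifs searched, which besides those above were the palindromic HNF1 motif and the full palindromic glucocorticoid receptor element, was found in it. The letters of these last motifs, searched exactly on both strands, were each found in 3 of all windows, or 0.00913%.

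Just short of 2-fold lay Serpinb1c, Serpinb6b and Serpinb1a. Serpinb1c was at 86.4 upon fasting and 37.4 upon feeding, a log2 change of -0.99, but it was dim and gave -0.34 under the normexp correction and -1.10 after scaling to the 75th percentile. Serpinb6b, described as an inhibitor of granzyme A, was at 1354 and 639, also with a log2 change of -0.99. Serpinb1a, the neutrophil elastase and cathepsin G inhibitor that protects neutrophils from their own proteases, was at 2273 and 1166 (log2 change -0.91).

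Serpinb9, which guards cytotoxic lymphocytes against their own granzyme B, was at 382 and 201 (log2 change -0.75). Smaller differences were found for Serpinb6c, at 4492 and 3330 (log2 change -0.39), and Serpinb6a, at 6321 and 5081 (log2 change -0.28). Serpinb6d (-0.07) and Serpinb3c (-0.13) differed by less than the spot SD of dim probes. The probe of Serpinb3c was printed in 10 spots, with signals from 6.90 to 30.2 (median 18.0) upon fasting and from 9.76 to 19.98 (median 13.9) upon feeding, and the ranges overlapped.

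Clade B genes lie in clusters on chromosomes 1 and 13. Of the 12 genes on chromosome 1, 4 were measured and 2 of them on both arrays, Serpinb8 and Serpinb3c. Of the 17 genes on chromosome 13, 10 were measured and 7 on both arrays, and these 7 had values from -0.99 to -0.07. Serpinb12 had a lower bound of 0.06 upon feeding, and Serpinb1b, Serpinb3d, Serpinb6e and Serpinb9d passed the background limit upon feeding only and had no direction. The limit was lower there, 6.55 against 14.4 in normalized units. Members not well above background on either array included Serpinb2, Serpinb5 and Serpinb7, and a low level cannot be told from absence for them.

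The plasma serpins of clades C to G all stayed short of 2-fold. Serpinc1, antithrombin, was at 78118 upon fasting and 76879 upon feeding (log2 change 0.06). Serpind1, heparin cofactor II, was at 29288 and 34852 (log2 change 0.29). Serping1, the C1 inhibitor, was at 30904 and 29690 (log2 change -0.01), with -0.17 at its second probe.

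Serpine2 and the members of clade F lay slightly below 0. Serpinf2, the main plasmin inhibitor of plasma, was at 35261 and 31837 (log2 change -0.11). Serpine2, a cell-bound thrombin inhibitor, was at 168 and 124 (log2 change -0.23). Serpinf1, an antiangiogenic factor without inhibitory activity, was at 26772 and 24018 (log2 change -0.13), while its other probe gave -0.46, the widest disagreement between probes of a serpin (0.33). Its brightest probe was above 0, at 0.08, when the arrays were scaled to their medians.

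Serpinh1 is the collagen chaperone HSP47, resides in the endoplasmic reticulum and inhibits no protease. It was at 1535 upon fasting and 982 upon feeding, a log2 change of -0.57 or 6.09 times the spot SD. Genes for collagens and their processing enzymes had values below 0 in 17 of 20 cases, where 45.2% of all measured genes did, with a median of -0.37. None of the 20 passed 2-fold, where 7.91% of all genes did. Col1a1 was at 11406 and 6352 (log2 change -0.83). The genes of this list above 0 were P4hb, P4ha2 and P4ha1, all of them for processing enzymes. P4hb was at 16531 upon fasting and 25586 upon feeding (log2 change 0.66), and P4ha2 and P4ha1 had values of 0.20 and 0.10. Other processing genes were below 0, such as Plod1 at -0.81, so these enzymes did not move as 1 block. Serpini1, neuroserpin, was dim, at 40.7 and 33.6 (log2 change -0.04).

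**Figure D3:**
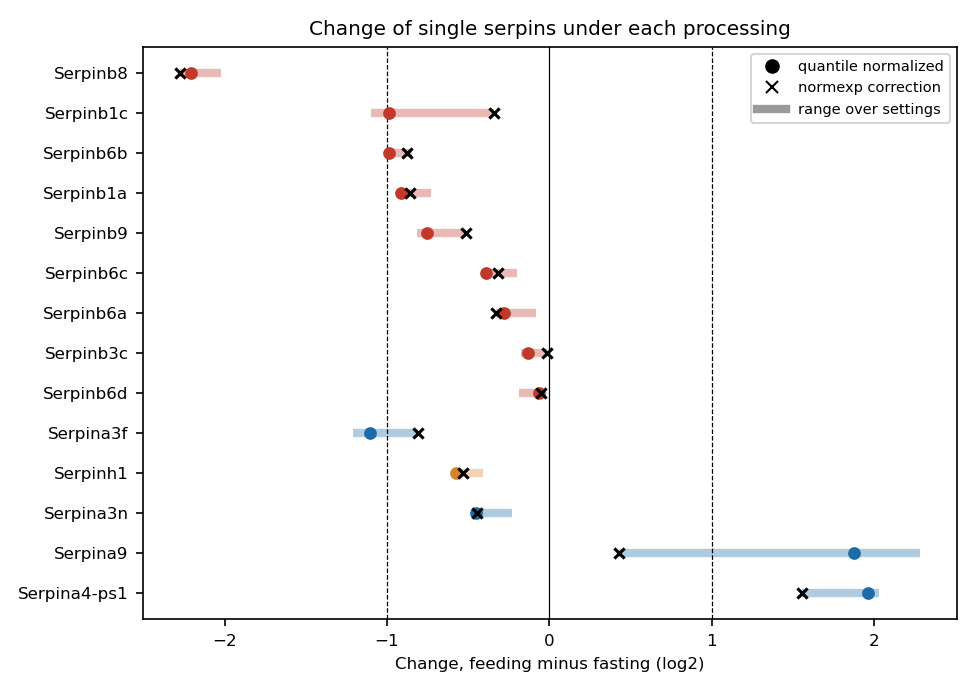
Log2 change of 14 serpins under quantile normalization (dots), under the normexp background correction (crosses) and over all 10 settings (bars), with dashed lines at 2-fold. Serpinb8 and Serpina4-ps1 remain past 2-fold in all settings, while Serpina3f, Serpinb1c and Serpina9 cross that line.

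Over the list of secreted serpins, which also holds the collagen chaperone Serpinh1, 24 of 24 genes with a probe were measured on both arrays. Their median log2 change was 0.06, with -0.01 under the normexp correction and 0.21 after scaling to the median. Of the 24 genes 10 were below 0, where 50.1% of all genes measured on both arrays were. Serpina3f was the member past 2-fold, where 7.91% of all measured genes were. Of 15 serpins with several probes, 11 had more than 1 measured probe, and in 9 of these 11 the probes had the same sign.

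The proteases that serpins inhibit were compared next. Of 29 measured, Prss8 rose and Plg and Plat fell past 2-fold, with a list median of -0.11. That median was -0.07 under the normexp correction and above 0, at 0.04, after scaling to the median. Over all measured genes 3.29% were higher and 4.62% lower past 2-fold. Plg, plasminogen, was at 13149 upon fasting and 5381 upon feeding, a 2.40-fold decrease, while its inhibitor Serpinf2 had the log2 change of -0.11 given above. Plat, the tissue plasminogen activator, was at 134 and 56.6 (log2 change -1.03), with -0.39 under the normexp correction. Prss8, prostasin, was at 108 and 201 (log2 change 1.11), with 0.67 under that correction. Thrombin (F2), a target of antithrombin, differed by 0.04, and factor X (F10) by 0.09. Among targets of clade B serpins, Gzma was at 1066 and 547 (log2 change -0.86), Gzmb at 711 and 415 (log2 change -0.64) and Elane at 1852 and 1601 (log2 change -0.17). Cathepsin G (Ctsg) and Prtn3 of the same list went the other way, both dim. Ctsg was at 41.8 and 48.7 (log2 change 0.45) and Prtn3 at 38.4 and 59.0 (log2 change 0.86). Under the normexp correction they were at 0.09 and 0.28.

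Other gene lists around the serpins are given beside the background of 7.91% of all measured genes past 2-fold. None of 32 other protease inhibitors passed it (median -0.01), with 16 below 0 and 14 above. Timp1 and Timp2, inhibitors of matrix metalloproteases, had values of -0.77 and -0.71. Timp3 was at -0.19, Timp4, which was dim, at 0.50 and Reck at 0.72. None of 15 serpin cofactors and receptors passed it, with Thbd, thrombomodulin, at 1787 upon fasting and 857 upon feeding, a 1.99-fold difference. Their median was -0.25, with -0.19 under the normexp correction and -0.11 after scaling to the median. Of 20 acute phase genes, Il1rn fell past 2-fold, from 156 to 52.0 (log2 change -1.37, and -0.62 under the normexp correction), and the list median was -0.01. The acute phase genes were split, with 11 below 0, as Serpina3n was, and 9 above. Below 0 were Saa4 at -0.95 and Socs3 at -0.94, while Saa1 and Saa2 had values of 0.89 and 0.96. When the arrays were scaled to their medians, Saa1 and Saa2 were at 1.08 and 1.16. Under that scaling Saa4 was at -0.74, Socs3 at -0.77 and Serpina3n at -0.23.

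**Figure D4:**
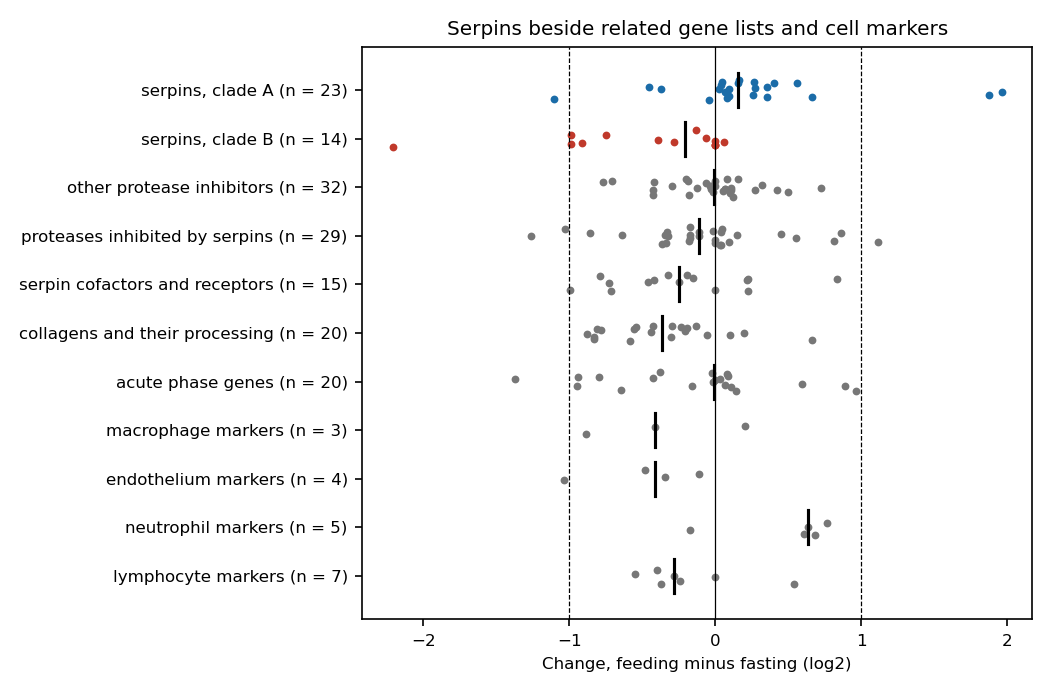
Log2 change of each measured gene (dots) and list median (black bars) for serpins of clades A and B, related gene lists and markers of other liver cells. Clade B, collagens, macrophage and endothelium markers have medians below 0, and neutrophil markers a median of 0.64.

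All 6 hepatocyte markers were measured in both pools, Alb at 159091 and 141790, so the RNA carried the signature of the labelled tissue. Their summed signal was 619536 upon fasting and 537146 upon feeding (5 of 6 below 0, Tat at -0.97). Summed signals here are before normalization, and the median signal was 61.5 on the fasting array and 52.8 on the feeding array. In whole liver, fewer cells of a type and less RNA per cell cannot be told apart. Beside the counts in this paragraph, 45.2% of all measured genes and 50.1% of those measured on both arrays were below 0. Macrophage markers had a summed signal of 21864 upon fasting and 13672 upon feeding (2 of 3 below 0, Adgre1 at -0.89). Endothelium markers were at 25772 and 19098 (4 of 4 below 0, from Pecam1 at -1.04 to Kdr at -0.11). Pecam1 was at -0.79 under the normexp correction, and Kdr was above 0, at 0.08, when scaled to the median. Markers of lymphocytes had a summed signal of 5339 and 3921 (5 of 7 below 0). Neutrophil markers went the other way, with a summed signal of 3270 and 3776 (4 of 5 above 0), and those of stellate cells and fibroblasts were at 38887 and 29575 (3 of 5 below 0). Other marker sets, each of 2 to 4 measured genes, had medians on either side of 0. They were 0.08 for cholangiocytes, 0.08 for platelets, 0.45 for mesothelium and 0.21 for adipose tissue. For red blood cells the median was -0.05 and for acinar pancreas -0.20. The part of these cell types in the values of the clade B serpins and of Serpinh1 was not tested.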

How the data were processed

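Liver RNA of 1 fasting and 1 feeding pool of 3 mice each was measured on 1-color Agilent arrays. The authors extracted the spots with Agilent Feature Extraction 11.0.1.1, per the file headers, and the deposited values are intensity values per spot, with the background already subtracted in the processed signal and no normalization between arrays. The deposited value table held the mean local background of each spot (44397 of 44397 spots equal within a relative difference of 1e-06) and was not used as expression. Of the spots, 63.1% upon fasting and 72.3% upon feeding were well above background, and none was saturated.

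Outlier and control spots were left out, the spots of each probe were combined as the mean of their log2 processed signals, and the 2 arrays were quantile normalized (Python 3.11.15, numpy 2.4.6, pandas 2.3.3). A probe counted as well above background where at least 50% of its spots were. Of 39402 probes 27218 were named through RefSeq transcripts of GRCm38.p6, and each gene took the value of its brightest probe (mean over both arrays). Where 1 array was not well above background, the change is a lower bound against the higher of the lowest signal called well above background there and the probe's own signal. Where that bound fell under 1-fold no direction was given. Signals in the text are processed intensities before quantile normalization, so a fold and the ratio of the 2 signals differ slightly.

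A difference of 2-fold was the threshold. The alternatives were scaling to the 75th percentile or the median, a normexp correction of the median spot signal (offset 50, R 4.3.3 with limma 3.58.1), other filters on dim probes, no bound, the mean of a gene's probes, outlier spots kept, and quantile normalization over detected probes. The rule named every serpin past 2-fold, the secreted serpins and Serpinh1, and genes of other lists past 2-fold. Other genes were named after their values were seen. The members, lists and tests were chosen with earlier results of these data known, and the lymphocyte markers were added after values were seen. Promoter sequences are those of RefSeq on GRCm38.p6, given for 54 serpin genes. The values of 1 measured serpin are not reported here.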

Additional observations from a re-analysis of the deposited data

How the results depend on the processing

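Serpinb8 and Serpina4-ps1 kept their direction and stayed past 2-fold under all 9 alternatives. The number of serpins past 2-fold, 4 as reported, was 2 under the normexp correction, 7 with no filter on dim probes and 9 at a threshold of 1.5-fold. The number higher upon feeding, 2 as reported, was 1 under normexp, 1 when both arrays had to be well above background and 4 with no filter, and the number lower, 2 as reported, was 1 under normexp, 6 at 1.5-fold and 1 at 3-fold. Dim probes account for the difference without a filter, where Serpinb10, Serpinb3a and Serpinb3b were added. The normexp correction adds an offset of 50 to every signal, which draws the log2 differences of dim probes toward 0. Over all genes, 215 were higher and 312 lower past 2-fold under it, against 537 and 756 as processed here. The part of the offset in the serpin count was not tested. Scaled to the median, the median log2 change was 0.11 over the measured serpins and 0.29 in clade A, with 0.09 over all genes. The clade B median was -0.75 where both arrays had to be well above background, since genes with no direction then leave the list. Of 242 values of 27 named serpins under the alternatives, 200 lay within the spot SD of the reported value, 231 had its sign and 11 the other sign, and no serpin past 2-fold reversed. Many of these values could not differ from the reported one. For a gene with 1 probe that was well above background on both arrays, as for Serpinb8 and Serpina4-ps1, the filters, no bound and the mean of probes return the same value. The counts therefore overstate how many checks were made. No paired analysis was possible because each group has 1 array, and no replicate could be left out for the same reason. Low signal over background limits the dim genes, among them Serpina5, Serpina9, Serpina12, Serpina3j and Serpinb1c, and the 7 serpins detected on 1 array.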
